A study of Mus musculus with 18 samples.

Results

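Receptors for neuropeptides and monoamines were followed in the mouse hypothalamus through a list of 36 genes. For each gene the brightest probeset that the platform annotation pairs with that gene alone was taken, out of 19937 genes so named. It was found for 33 of the 36 genes, each with 1 probeset, and 3 genes (Adra1a, Adra2a and Adora1) were not analysed here. The 18 arrays were made from the hypothalami of wild-type and Wfs1 mutant mice. Wfs1 encodes wolframin, a membrane glycoprotein of the endoplasmic reticulum, and all mice shared a background called 129SV in the labels and 129S6 in the design text. The labels name no treatment and state neither the mutant allele nor sex or age.

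Each array carries a pair of genotype labels, a genotype field (9 KO, 9 WT) and a title ending (10 ko, 8 wt). They agree on 9 arrays, 5 written here as ko/KO and 4 as wt/WT, and contradict each other on the other 9, which are 5 ko/WT and 4 wt/KO, with the ending first and the field second. Neither was taken as the true genotype, so each difference below is between arrays labelled in that way. The level of the targeted gene followed neither label. The Wfs1 probeset was 8.72, 8.68, 8.41, 7.97 and 7.86 on ko/KO arrays and 8.02, 8.04, 7.89 and 8.41 on wt/WT arrays. It was 7.98, 8.56, 8.07, 8.44 and 8.36 on ko/WT and 8.04, 7.92, 8.61 and 8.06 on wt/KO arrays. Values above 8.2 were found on 6 of 10 arrays with the ending ko and 2 of 8 with wt, and on 4 of 9 for each genotype field. The labels do not say whether the probeset covers the mutated part of the gene. The titles carry different numbers for each array, but the labels do not state that these mark separate animals. If they do not, p-values measure only the spread between these samples, part of which may be technical. The last number in each title was lower on every array with the ending ko than on any with wt. Arrays of both genotype fields lay on each side. A difference by ending therefore cannot be told apart from one by this number, whatever the number stands for. Among hypothalamic peptide genes Pmch ran from 11.36 to 12.10, Oxt from 10.02 to 11.15 and Hcrt from 9.11 to 10.06 log2 units. Others lay near or below the median gene (7.60), such as Pomc from 7.30 to 7.98, Kiss1 from 6.99 to 7.49, Vip from 6.35 to 6.92 and Crh from 5.77 to 6.64. The array wt/WT 3 stood apart in genes of the choroid plexus, with a mean centred level of 0.906 and the next array at 0.266. The array medians lay between 7.1 and 7.19, and the SD of all probesets on an array, used below as a measure of its contrast, lay between 1.93 and 2.04. With 18 arrays, their number sets the precision of each value.

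All of these receptors are G protein-coupled, with a chain that crosses the membrane several times and passes a signal from an extracellular ligand to a heterotrimeric G protein. In the hypothalamus they let neurons read peptides released by neighbouring nuclei and hormones from the periphery, and they take part in feeding, fluid balance, stress, reproduction and arousal. Receptors are made in small amounts compared with the peptides they bind, and most are restricted to certain groups of neurons, so that a whole dissected hypothalamus averages over many cells that lack them. In such bulk samples, fewer cells of a type and less RNA per cell cannot be told apart.

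Against all genes, most receptor probesets lay near the middle. Their median level was 7.69 log2 units against 7.60 over all genes, and 21 of 33 were above the median gene. A probeset's level also depends on its probes, so the order is one of signals and not of transcript numbers. The serotonin receptors headed the order. The highest was Htr2c, the Gq-coupled 2C receptor through which serotonin restrains feeding, which ran from 10.48 to 10.85 with a median of 10.73 (10.69 ± 0.11, SD, n = 18). It alone of the receptors lay in the top 10% of all genes, at the 96.6th percentile. Htr1b, a Gi-coupled serotonin receptor, followed at 8.84 ± 0.057 (SD, n = 18) and Htr2a at 8.34 ± 0.16 (SD, n = 18). On every array Htr2c was above Htr1b and Htr1b above Htr2a, and the ranges did not touch. From Htr2a downwards the order was close to a continuum. Of 32 neighbouring steps in the order, 5 were larger than the pooled SD of the pair, and the ranges of the pair stood apart in 2, both among the serotonin receptors.

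**Figure D1:**
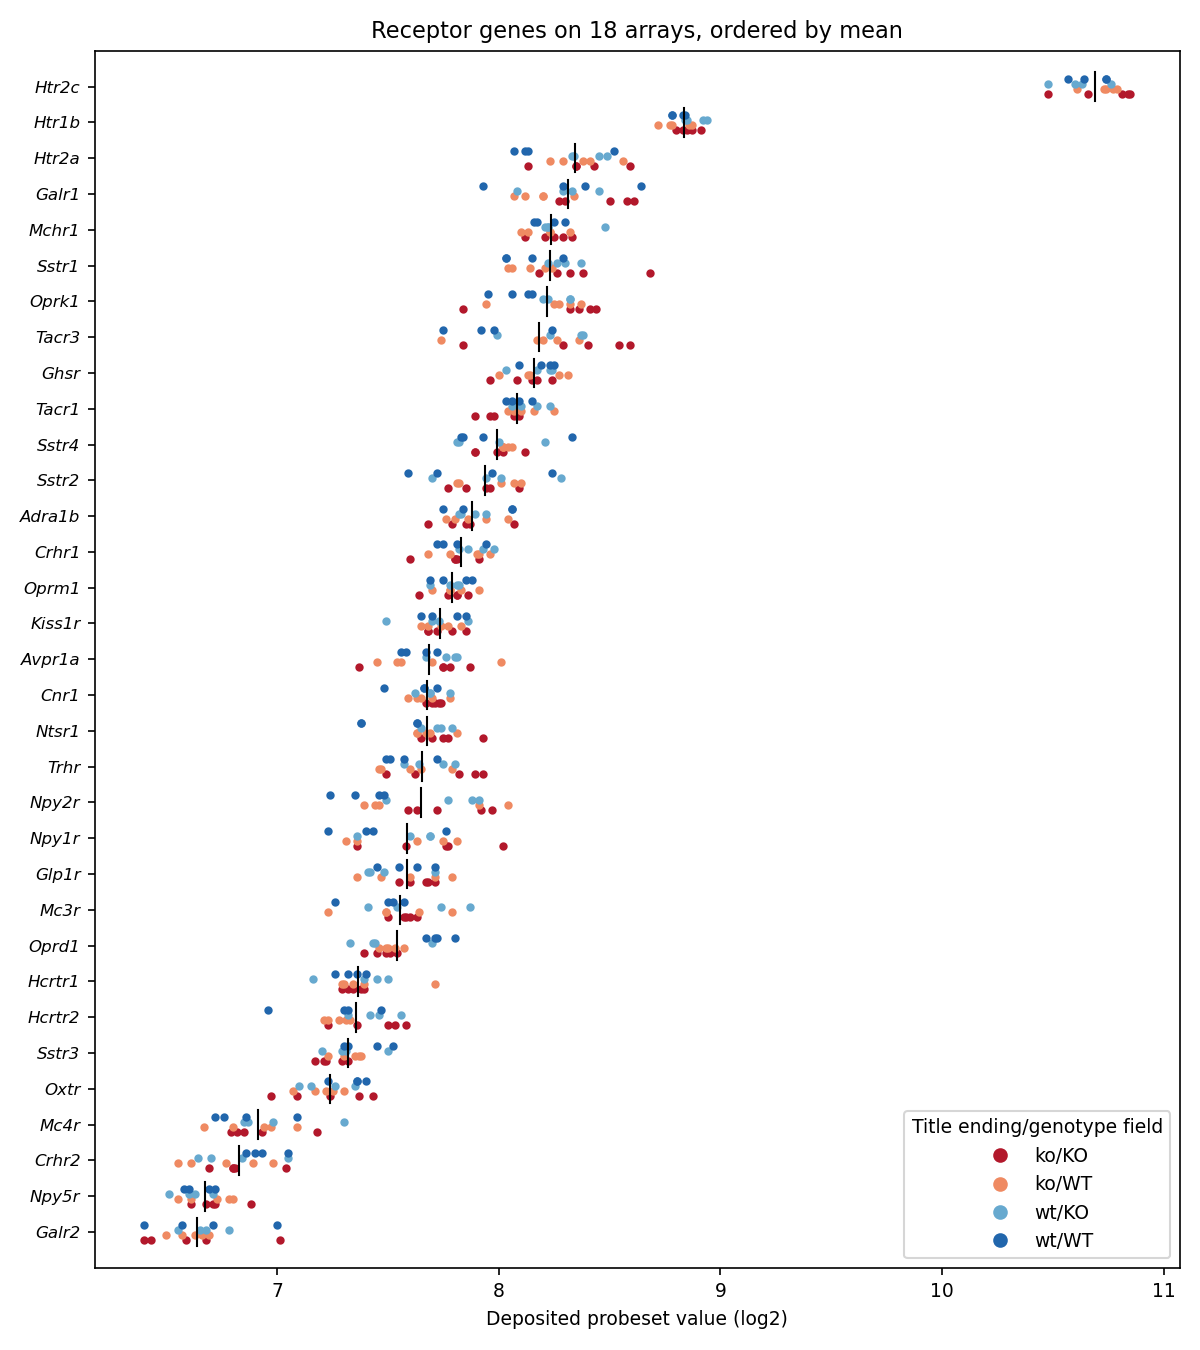
Deposited log2 value (horizontal axis) of 33 receptor genes (rows, ordered by mean) on 18 arrays. Each point is an array, coloured by title ending and genotype field, and each black tick is the mean over the 18 arrays. Htr2c and Htr1b stand apart at the top, and 27 of the 33 means lie between 7 and 8.5.

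Other receptors that relay feeding signals were spread over the order, from Mchr1 near the top to Npy5r near the end. The ghrelin receptor gene Ghsr was 8.16 ± 0.097 and the incretin receptor gene Glp1r 7.58 ± 0.13 (SD, n = 18 for each). Of the neuropeptide Y receptors, Gi-coupled and bound by the appetite-stimulating peptide NPY, Npy2r was 7.65 ± 0.25, Npy1r 7.58 ± 0.22 and Npy5r 6.67 ± 0.095. The melanocortin receptors, Gs-coupled targets of the products of Pomc, were 7.55 ± 0.16 for Mc3r and 6.91 ± 0.16 for Mc4r. The MCH receptor gene Mchr1 was 8.23 ± 0.090, and the orexin receptor genes were 7.37 ± 0.11 for Hcrtr1 and 7.35 ± 0.15 for Hcrtr2. Npy5r and Galr2, the latter at 6.64 ± 0.17, closed the order, and their lowest values, 6.51 and 6.40, were still above the lower quartile of every array (6 at the highest).

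The remaining receptor families covered a narrow band of signal. Among opioid receptor genes Oprk1 (kappa, bound by dynorphin) was 8.22 ± 0.17, Oprm1 (mu) 7.79 ± 0.072 and Oprd1 (delta, bound by enkephalins) 7.54 ± 0.13. The 4 somatostatin receptor genes ran from Sstr1 at 8.23 ± 0.16 through Sstr4 at 7.99 ± 0.14 and Sstr2 at 7.94 ± 0.18 to Sstr3 at 7.32 ± 0.099. The vasopressin receptor gene Avpr1a was 7.69 ± 0.16 and the oxytocin receptor gene Oxtr 7.24 ± 0.13. The receptors of the stress peptides CRH and the urocortins were 7.83 ± 0.10 for Crhr1 and 6.83 ± 0.15 for Crhr2, and that of thyrotropin-releasing hormone, Trhr, 7.65 ± 0.15. Among tachykinin receptors Tacr3, which binds neurokinin B, was 8.18 ± 0.26, and Tacr1, the substance P receptor, 8.08 ± 0.090. The kisspeptin receptor gene Kiss1r was 7.73 ± 0.093 and the neurotensin receptor gene Ntsr1 7.67 ± 0.13. Adra1b, an alpha-1 adrenergic receptor, was 7.88 ± 0.12, and Cnr1, the cannabinoid receptor of axon terminals, 7.68 ± 0.071. From Htr2a to the end of the order, neighbours differed by less than their pooled SD over arrays except at 3 steps. These were Oprd1 over Hcrtr1 by 0.17, Oxtr over Mc4r by 0.33 and Crhr2 over Npy5r by 0.16, and the ranges overlapped at each.

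The receptors varied between arrays about as much as other genes did. Their median SD was 0.133 log2 units and that of all genes 0.133, and 16 of 33 were above the median gene. The range was wide, from 0.057 for Htr1b (0.692nd percentile of all genes) to 0.256 for Tacr3 (95.9th percentile). Cnr1 and Oprm1 were also in the steadiest 10% of all genes, at percentiles 3.59 and 3.88. Only Tacr3, Npy2r and Npy1r were in the most variable 10%, and Galr1, Sstr2, Oprk1, Galr2 and Mc4r came next.

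Tacr3 ran from 7.74 on the array ko/WT 2 to 8.59 on ko/KO 5, with a median of 8.24. It was low on 6 arrays of all 4 label groups, at 7.74 on ko/WT 2, 7.75 on wt/WT 1, 7.84 on ko/KO 2, 7.92 on wt/WT 3, 7.98 on wt/WT 2 and 7.99 on wt/KO 3. The other arrays lay between 8.17 and 8.59. Npy2r ran from 7.24 on wt/WT 1 to 8.04 on ko/WT 3 with a median of 7.61, and Npy1r from 7.23 on wt/WT 3 to 8.02 on ko/KO 1 with a median of 7.62. Galr1, a Gi-coupled galanin receptor, had both its extremes among arrays labelled wt/WT, 7.93 on wt/WT 4 and 8.64 on wt/WT 1. Sstr2 had its lowest value, 7.59, on wt/WT 4 too, and its highest, 8.28, on wt/KO 3. Oprk1 ran from 7.84 to 8.44, Galr2 from 6.40 to 7.01 and Mc4r from 6.67 to 7.30. The lowest and highest arrays of these 8 genes came from all 4 label groups.

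Tacr3 followed the genes of dopamine neurons. Markers of other cells and regions were measured beside the receptors with 17 lists, each summarised on an array by the mean of its genes after centring each gene. Tacr3 correlated with the dopamine neuron list at r = 0.898 over 18 arrays (permutation p = 1e-05, the smallest that 100000 resamples can give, adjusted p = 0.00561 over 561 relations of receptors with lists). Spearman's rho was 0.814 (permutation p = 1e-04, adjusted p = 0.0337), and r was 0.850 without the 2 arrays farthest from the median of the list. Leaving out each array in turn gave r from 0.875 to 0.912, and after regression on the array SD r was 0.847 (adjusted p = 0.00561). Of 33 receptors 2 (6.06%) had an r of at least 0.7 in size with this list, against 0.813% of all genes, the other being Oprk1.

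Of the 8 genes in the dopamine neuron list 5 had an r of at least 0.7 with Tacr3. They were Chrna6, a nicotinic receptor subunit of midbrain dopamine neurons (0.952), Slc18a2, the vesicular monoamine transporter (0.932), Th, tyrosine hydroxylase (0.910), Slc6a3, the dopamine transporter (0.886), and Aldh1a1, a dehydrogenase of ventral midbrain dopamine neurons (0.808). The transcription factors of the list gave lower values, 0.311 for En1, 0.097 for Foxa1 and -0.460 for Pitx3. Among the other lists 1 gene each of the astrocyte, endothelial and striatal lists reached 0.7, namely Gjb6 (0.827), Slco1a4 (0.721) and Drd2 (0.713). Foxj1 of the ependymal list was at -0.720. Over all genes the 3 most similar to Tacr3 were Chrna6, Slc18a2 and Ddc, which encodes aromatic amino acid decarboxylase (r = 0.928). Slc6a3 ran from 9.06 to 10.75 and Chrna6 from 6.73 to 8.22. The values of Chrna6 on the low arrays, and those of En1 (6.68 to 7.29), lay below the median gene. The level of the dopamine neuron list ran from -0.39 to 0.23 on the ko/KO arrays and -0.34 to 0.30 on ko/WT. It ran from -0.20 to 0.38 on wt/KO and -0.55 to 0.22 on wt/WT. The labels do not say how far the dissection reached towards the midbrain, and its part in the result was not tested.

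**Figure D2:**
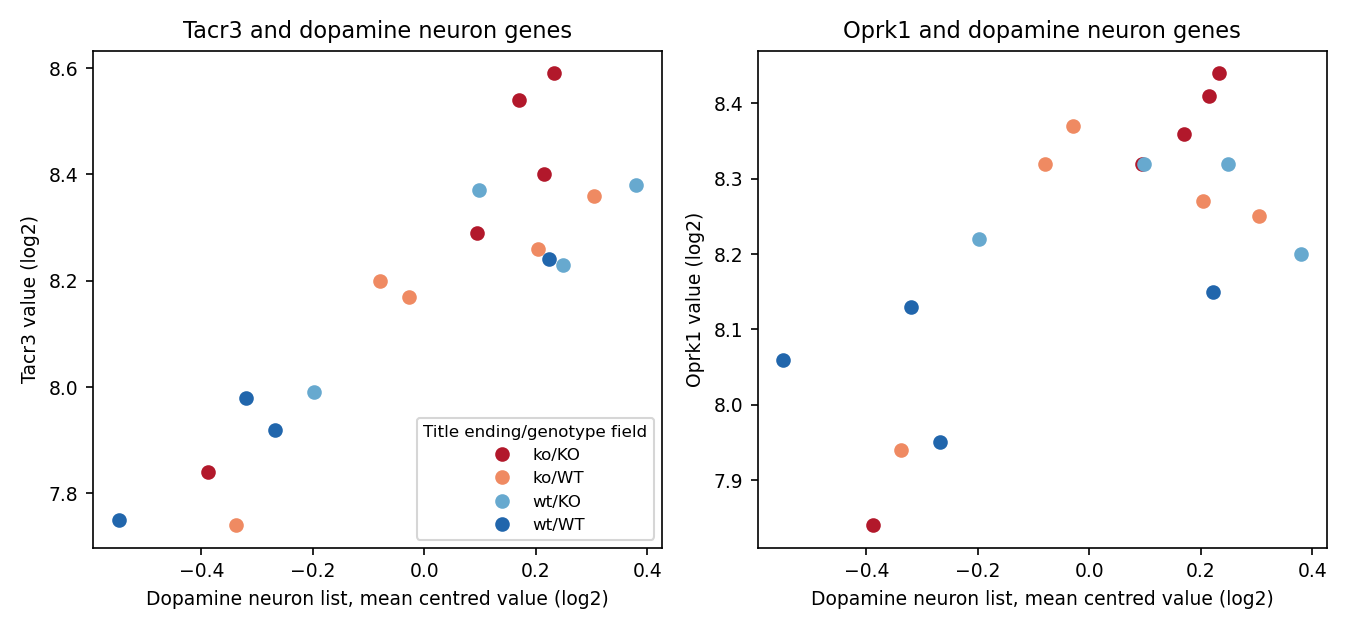
Tacr3 (left) and Oprk1 (right) log2 values against the mean centred log2 level of 8 dopamine neuron genes. Each point is 1 of 18 arrays, coloured by title ending and genotype field. Both receptors climb with the list, Tacr3 more closely (r = 0.898) than Oprk1 (r = 0.703), and a test of the difference between the correlations was not made.

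Oprk1 was the receptor most like Tacr3. The pair correlated at r = 0.837 (permutation p = 1e-05, adjusted p = 0.00264 over 528 pairs of receptors) and rho = 0.759 (p = 0.00037, adjusted p = 0.0279). Without the 2 arrays farthest from the median of Tacr3 r was 0.801, and ko/KO 2, where Oprk1 was lowest, stayed in. In the relations below the farthest arrays are likewise those of the gene, list or array SD named last, so extremes of the other gene can remain. With the dopamine neuron list Oprk1 gave r = 0.703 (p = 0.00104, adjusted p = 0.0389) and rho = 0.545 (p = 0.0200, adjusted p = 0.161). After regression on the array SD neither relation passed, at r = 0.742 with Tacr3 (adjusted p = 0.0669) and 0.545 with the list (adjusted p = 0.265). With deviations from the label group means the relation with Tacr3 passed (r = 0.807, adjusted p = 0.0202) and that with the list did not (r = 0.627, adjusted p = 0.0780). The latter also did not pass without any 1 of 12 arrays (adjusted p from 0.0536 to 0.105). Both receptors were low on ko/KO 2, ko/WT 2 and wt/WT 3, where Oprk1 was 7.84, 7.94 and 7.95.

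The closest pair was Npy1r with Htr2a, a Gi-coupled peptide receptor and a Gq-coupled serotonin receptor. They correlated at r = 0.861 (permutation p = 1e-05, adjusted p = 0.00264) and rho = 0.823 (p = 8e-05, adjusted p = 0.0211), with r = 0.794 without the 2 farthest arrays. Leaving out each array in turn gave r from 0.831 to 0.890, and after regression on the array SD r was 0.817 (adjusted p = 0.0211). Both genes had their highest value on ko/KO 1 (8.02 and 8.59) and their lowest on wt/WT 3 (7.23 and 8.07).

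In all, 12 of 528 pairs of receptors passed the threshold, 11 with a positive and 1 with a negative r, and 108 had an unadjusted p under 0.05. Large correlations were about as frequent as among other genes. Of receptor pairs 2.08% had an r of at least 0.7 in size, against 2.34% of all pairs of genes. Npy1r, Oprk1 and Htr2a each took part in 4 of the 12. Npy1r correlated with Oprk1 at 0.770 (adjusted p = 0.0185) and with Sstr1 at 0.715 (adjusted p = 0.0317), and inversely with Adra1b at -0.761 (adjusted p = 0.0306). Oprk1 correlated with Avpr1a at 0.744 and with Htr2a at 0.743 (adjusted p = 0.0317 for each), and Htr2a with Mc4r at 0.727 (adjusted p = 0.0317) and with Sstr1 at 0.690 (adjusted p = 0.0400). Npy2r correlated with Trhr at 0.745 (adjusted p = 0.0350) and with Mc3r at 0.741 (adjusted p = 0.0185).

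Spearman's rho for the 8 pairs with the largest r was between 0.679 and 0.823 in size, and 11 pairs passed by rho. By rho the adjusted p was 0.0757 for Oprk1 with Htr2a, 0.162 for Npy1r with Sstr1 and 0.0597 for Sstr1 with Htr2a. Without the 2 farthest arrays Npy1r with Sstr1 was 0.504 and Sstr1 with Htr2a 0.556. After regression on the array SD 2 pairs passed, Npy1r with Htr2a and Sstr2 with Sstr4. The number of pairs that passed was 6 without wt/KO 1, 5 without ko/WT 2 and 5 without wt/WT 3. Without wt/WT 3 the adjusted p of Npy1r was 0.0572 with Oprk1 and 0.0727 with Adra1b, and without ko/WT 3 that of Mc3r with Npy2r was 0.0520. Npy2r with Trhr had an adjusted p from 0.0514 to 0.0727 without wt/WT 1, wt/KO 1, ko/WT 2, wt/WT 3, wt/KO 4 or ko/KO 5. Oprk1 with Avpr1a had one from 0.0512 to 0.0997 without ko/KO 2, wt/KO 1, ko/WT 2 or ko/KO 5. Oprk1 with Htr2a had one from 0.0514 to 0.0859 without wt/WT 1, ko/KO 2, ko/WT 2, ko/WT 3 or wt/WT 3, and with deviations from the label group means it did not pass (r = 0.679, adjusted p = 0.0673). Npy1r with Sstr1 did not pass without ko/KO 1, wt/KO 1, ko/WT 2, wt/WT 2, wt/WT 3 or ko/KO 4 (0.0516 to 0.166). Mc4r with Htr2a did not pass without any 1 of 8 arrays (0.0502 to 0.0940), nor Sstr1 with Htr2a without any 1 of 12 (0.0514 to 0.156).

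**Figure D3:**
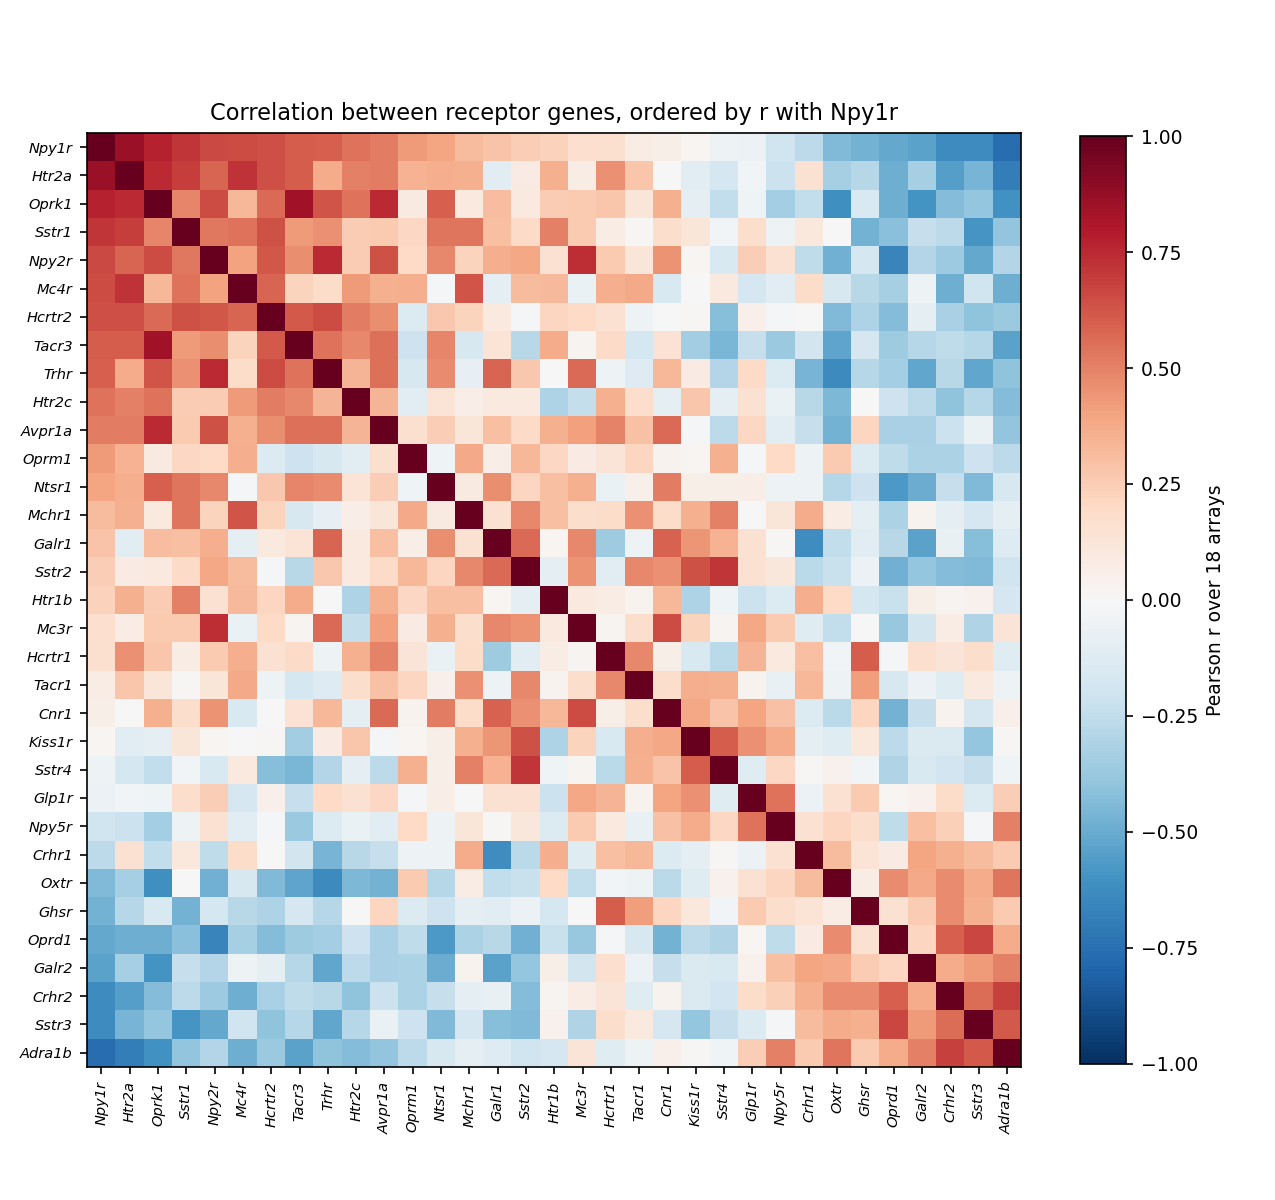
Pearson r over 18 arrays between all pairs of 33 receptor genes, in the order of their r with Npy1r, with red for positive and blue for negative values. Npy1r, Htr2a, Oprk1, Sstr1 and Npy2r come first, and Adra1b, Sstr3 and Crhr2, with r from -0.761 to -0.631 with Npy1r, come last.

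Receptors that share a ligand family had correlations of both signs. Of 21 such pairs in 10 families (those with at least 2 of these receptors, such as opioids, orexins or serotonin) 9 had a positive and 12 a negative r, and 1 passed the threshold, Sstr2 with Sstr4 (r = 0.715, permutation p = 0.00073, adjusted p = 0.0350). For that pair rho was 0.591 (p = 0.0105, adjusted p = 0.154), and r fell to 0.496 without the 2 farthest arrays, so the relation rests in part on those arrays. It did not pass without any 1 of 11 arrays (adjusted p from 0.0516 to 0.113). The next largest in size were Npy1r with Npy2r at 0.659, Sstr1 with Sstr3 at -0.589 and Galr1 with Galr2 at -0.534. Their adjusted p values by permutation test were 0.0865, 0.117 and 0.172. Npy1r and Npy5r, which lie side by side on the same chromosome and are read from opposite strands, gave r = -0.203 (adjusted p = 0.688). Mc3r and Mc4r gave r = -0.066, Hcrtr1 and Hcrtr2 0.156, and Oxtr and Avpr1a -0.472, with adjusted p values of 0.920, 0.764 and 0.240. A p that misses the threshold does not show that the genes vary independently.

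The promoters of Npy1r and Htr2a, the closest pair, and of Tacr3, the receptor closest to the dopamine genes, are printed to show which short motifs they hold. They run from 250 bases before to 50 after the start of the gene, from RefSeq on GRCm38.p6, which was matched for 28 of the 33 genes (all but Oprk1, Sstr1, Galr1, Trhr and Mc4r). Npy1r lies at chr8:66697172-66697471, Htr2a at chr14:74640624-74640923 and Tacr3 at chr3:134828757-134829056, all on the plus strand. Capitals mark matches on either strand to TGACG (the half-site of the cyclic AMP response element), TATAAA (the TATA box), GGGCGG (an Sp1 site), CCAAT and AAAGGTCA (the site of Nurr1, the dopamine neuron factor). No match overlapped another in these windows.
Npy1r: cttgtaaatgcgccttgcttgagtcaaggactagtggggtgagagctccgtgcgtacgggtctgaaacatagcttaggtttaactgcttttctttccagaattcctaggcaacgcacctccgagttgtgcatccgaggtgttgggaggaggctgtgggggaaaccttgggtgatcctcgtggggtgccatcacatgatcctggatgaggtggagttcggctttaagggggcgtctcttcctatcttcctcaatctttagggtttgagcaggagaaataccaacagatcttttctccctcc
Htr2a: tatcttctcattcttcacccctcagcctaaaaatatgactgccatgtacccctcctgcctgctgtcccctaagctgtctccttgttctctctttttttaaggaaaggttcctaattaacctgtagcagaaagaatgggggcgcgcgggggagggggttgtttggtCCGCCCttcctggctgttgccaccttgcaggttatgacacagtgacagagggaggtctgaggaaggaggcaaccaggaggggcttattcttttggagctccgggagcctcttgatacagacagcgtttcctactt
Tacr3: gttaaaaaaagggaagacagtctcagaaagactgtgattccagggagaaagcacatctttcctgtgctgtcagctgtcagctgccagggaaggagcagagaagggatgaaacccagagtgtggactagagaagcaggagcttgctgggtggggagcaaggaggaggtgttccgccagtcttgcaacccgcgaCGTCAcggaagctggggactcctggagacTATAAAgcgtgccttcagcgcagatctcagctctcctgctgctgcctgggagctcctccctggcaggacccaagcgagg
The Npy1r window held none of these letters and that of Htr2a a single GGGCGG on the minus strand, so the closest pair had no searched motif in common. The Tacr3 window held TATAAA from 29 bases before the start and TGACG on the minus strand from 58 bases before it. Over the 36 promoters of receptors TGACG occurred in 25%, TATAAA in 8.33%, GGGCGG in 30.6%, CCAAT in 33.3% and AAAGGTCA in 0%. Over all 32851 promoters of this length the shares were 20.8%, 13.6%, 35.7%, 37.4% and 1.51%. A match is a description of the letters and not a binding site.

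The genes most like the other variable receptors differed from those of Tacr3. For Npy2r they were Asb4, a gene of hypothalamic neurons (r = 0.941), Hs2st1, a heparan sulfate sulfotransferase (0.916), and Zfp830 (0.909). For Npy1r they were Vcan, which encodes the matrix proteoglycan versican (0.930), Ppp2r2b, a phosphatase subunit (0.915), and Supt20 (0.914). For Galr1 the highest values were lower, with Matn2 (0.795), Sema4a (0.786) and Pcdh19 (0.777). These are the highest values over all other genes on 18 arrays and are given as a description.

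Relations with the astrocyte, pituitary, ependymal and endothelial lists were about as frequent among receptors as among all genes, or less so. Of 561 relations 16 passed the threshold, 11 positive and 5 negative. Npy1r gave r = 0.772 with the astrocyte list (adjusted p = 0.0202), Htr2a 0.758 (adjusted p = 0.0215), Oprk1 0.746 (adjusted p = 0.0264) and Hcrtr2 0.718 (adjusted p = 0.0342). Receptors with an r of at least 0.7 in size made up 12.1% of the 33 for this list and 11.1% of all genes. For the pituitary list they made up 9.09%, against 15% of all genes, with Oprk1 at -0.767 (adjusted p = 0.0202), Npy1r at -0.725 and Oxtr at 0.716 (adjusted p = 0.0389 for each). The array SD ran with the astrocyte list (r = 0.808) and against the pituitary list (r = -0.690). Of the 8 pituitary genes 2 were below the lower quartile on every array. All of them but Ghrhr (7.26 to 7.84) stayed below the median gene (7.60) on every array. Ependymal and tanycyte genes ran against Npy1r (-0.751) and with Adra1b (0.739, adjusted p = 0.0305 for each), at 6.06% of receptors and 6.13% of all genes. In that list only Tmem212 had a median (7.755) above the median gene. Single arrays ended several of these calls. Npy1r with astrocytes had an adjusted p from 0.0531 to 0.0535 without ko/KO 1 or ko/WT 2, and Oprk1 with the pituitary list one of 0.0552 without ko/KO 5. Htr2a with astrocytes had one from 0.0514 to 0.0577 without ko/KO 1, ko/WT 2, wt/KO 2 or ko/KO 3. Oprk1 with astrocytes had one from 0.0505 to 0.0932 without ko/KO 1, ko/KO 2, ko/WT 2, wt/KO 2, ko/WT 5 or ko/KO 5. The call of Npy1r with ependymal genes ended without ko/WT 1, ko/WT 2, wt/KO 2, ko/KO 3, wt/WT 3, wt/KO 4, ko/WT 5 or ko/KO 5 (adjusted p from 0.0501 to 0.0733), and that of Adra1b without any of these or ko/KO 1 or ko/KO 2 (0.0501 to 0.0827). Hcrtr2 with astrocytes did not pass without any 1 of 9 arrays, nor Npy1r and Oxtr with the pituitary list without any 1 of 12. With deviations from the label group means the calls of Oprk1 (adjusted p = 0.0505), Npy1r (0.0547) and Oxtr (0.0659) with the pituitary list and of Oprk1 (0.0659) and Hcrtr2 (0.0547) with astrocytes were lost, each with an r of at least 0.663 in size.

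The receptors with a relation past the threshold to a list of a hypothalamic nucleus were Mc3r and Crhr1. Mc3r, which is known for its expression in the ventromedial and arcuate nuclei, gave r = 0.731 with the 3 genes of the ventromedial nucleus (Nr5a1, Fezf1 and Adcyap1; permutation p = 0.00081, adjusted p = 0.0389, rho = 0.709 with adjusted p = 0.0575). It was 0.545 without the 2 farthest arrays. Crhr1 gave r = 0.710 with the suprachiasmatic list (p = 0.00096, adjusted p = 0.0389, rho = 0.631 with adjusted p = 0.105), and 0.702 without the 2 farthest arrays. Every gene of the suprachiasmatic list stayed below the median gene (7.60) on every array, the highest value being 7.58 for Six3. In the ventromedial list Nr5a1 also stayed below it, at 7.54 or less. Fezf1 and Adcyap1 stayed above it, with lowest values of 7.96 and 9.04. Without any 1 of 10 arrays the call of Mc3r was lost (adjusted p from 0.0501 to 0.120), and without any 1 of 12 that of Crhr1 (0.0501 to 0.189). Both lists held 3.03% of receptors at an r of at least 0.7 in size, 1 gene each, against 0.216% and 0.582% of all genes. Crhr2 ran against endothelial genes at -0.763 (adjusted p = 0.0202) and Htr2a ran with them at 0.691 (adjusted p = 0.0400). For this list the share was 3.03% of receptors and 4.27% of all genes. By permutation test Crhr2 did not pass by rho (-0.716, adjusted p = 0.0575) or after quantile normalization (r = -0.703, adjusted p = 0.0529). The call of Htr2a was lost without any 1 of 12 arrays (adjusted p from 0.0501 to 0.0987) and with deviations from the label group means (r = 0.648, adjusted p = 0.0746). Htr2a ran against choroid plexus genes at -0.649 (adjusted p = 0.0202, rho = -0.573 with adjusted p = 0.147), and at -0.556 without the 2 farthest arrays. On wt/WT 3, where choroid plexus genes stood apart, Htr2a had its lowest value, and without that array r was -0.646 (adjusted p = 0.0882). With deviations from the label group means r was -0.515 (adjusted p = 0.228). The other 9 lists held no relation past the threshold. No receptor reached 0.7 in size with these 9 or with choroid plexus genes. Among all genes 0.281% did so for choroid plexus, 0.597% for the arcuate nucleus, 0.14% for the lateral hypothalamus and 0.296% for the paraventricular and supraoptic nuclei. The shares were 1.03% for neurons, 1.02% for oligodendrocytes, 0.381% for microglia, 0.396% for cortex and hippocampus, 0.201% for striatum and 0.431% for thalamus. By r on all arrays no receptor reached that size with the array SD either, against 7% of all genes. The largest in size were Npy2r at 0.633, Oprk1 at 0.626, Tacr3 at 0.595 and Oprd1 at -0.578 (permutation test, adjusted p = 0.0799 for each). By rho Oprk1 gave 0.773, Npy2r 0.728 and Trhr 0.701 with the array SD. Without the 2 farthest arrays r was 0.760 for Npy2r and 0.719 for Trhr.

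The number of list relations that passed depended on the arrays. It was 16 on all arrays and 5 after quantile normalization, and after regression on the array SD it was 2, of which Tacr3 with the dopamine neuron list was the 1 in common with the 16. It was 4 without ko/WT 2, 5 without wt/KO 2 or ko/KO 5, 6 without ko/KO 3, 7 without ko/WT 1, 8 without ko/KO 1, wt/KO 4 or ko/WT 5, and 10 without wt/KO 3 or ko/KO 4.

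A receptor and the gene of its ligand did not pass the threshold together for any of 32 pairs by permutation test (3 pairs at an unadjusted p under 0.05, 0 past the threshold by rho). The largest values were Trhr with Trh at r = 0.639 (permutation p = 0.00432, adjusted p = 0.0806) and rho = 0.688 (p = 0.0022, adjusted p = 0.0704), and Crhr2 with Ucn3, a urocortin that binds it, at 0.633 (p = 0.00504, adjusted p = 0.0806, rho = 0.580). Without the 2 farthest arrays they were 0.561 and 0.433. Trhr with Trh passed without ko/KO 5 (r = 0.753, adjusted p = 0.0202), and Crhr2 with Ucn3 without ko/KO 1 (r = 0.718, adjusted p = 0.0323). Sstr4 ran against Sst at -0.535 (adjusted p = 0.247), which became -0.235 without wt/WT 1. Npy1r with Npy was -0.424 (adjusted p = 0.625), and -0.187 without ko/KO 1.

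By title ending, 20 of 33 receptors had a higher and 13 a lower mean on the arrays labelled ko, where 51.8% of all genes had a higher one, with a median log2 difference of 0.011 against 0.0030 over all genes. Limma called 0 receptors at a Benjamini-Hochberg adjusted p of 0.05 (lowest 0.884) and 0 had an unadjusted p under 0.05, where 0% and 4.63% of all genes did (1.87% higher and 2.76% lower). The smallest p belonged to Oprd1, at 7.49 ± 0.051 with the ending ko (SD, n = 10) and 7.60 ± 0.17 with wt (SD, n = 8), a difference of -0.11 (SE 0.058, limma adjusted p = 0.884). Ntsr1 was 7.72 ± 0.095 and 7.62 ± 0.16, a difference of 0.11 (SE 0.059), and Npy5r differed by 0.077 (SE 0.047). The groups overlapped for every receptor, and 0.00502% of all genes had groups that did not.

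By genotype field, 7 of 33 receptors (21.2%) had an unadjusted p under 0.05, against 6.95% of all genes, and limma called 0 of either (lowest adjusted p = 0.694). Of the 7, 6 were higher with KO and 1 lower, against 2.49% and 4.46% of all genes. In all 19 receptors had a higher mean with KO, where 47.2% of all genes did. The groups overlapped for every receptor (0.00502% of all genes did not overlap). Sstr1 was 8.33 ± 0.15 with KO and 8.13 ± 0.098 with WT (SD, n = 9 for each), a difference of 0.20 (SE 0.059). Hcrtr2 differed by 0.17 (SE 0.060), Npy2r by 0.23 (SE 0.095), Tacr3 by 0.22 (SE 0.10), and Ntsr1 and Trhr by 0.14 each (SE 0.056 and 0.062). Oprd1 differed by -0.13 (SE 0.055). The mean array SD was 2.01 with KO and 1.99 with WT. With the array SD as a covariate 3 receptors, Sstr1, Hcrtr2 and Ntsr1, had an unadjusted p under 0.05, against 3.30% of all genes.

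Where both labels agree, 5 receptors (15.2%) had an unadjusted p under 0.05, against 11.1% of all genes, and limma called 0 of either (lowest adjusted p = 0.384). Of the 5, 4 were higher and 1 lower on ko/KO, against 2.9% and 8.22% of all genes, and 21 of 33 had a higher mean, where 49.5% of all genes did. These 9 arrays are part of both comparisons above, and Wfs1 was above 8.2 on 3 of the 5 ko/KO and 1 of the 4 wt/WT arrays. Npy2r was 7.92, 7.59, 7.63, 7.72 and 7.97 on the ko/KO arrays and 7.24, 7.46, 7.48 and 7.35 on the wt/WT arrays. Every ko/KO array was above every wt/WT array, and the difference was 0.38 (SE 0.096, limma adjusted p = 0.384). Oprd1 was 7.45, 7.49, 7.54, 7.51 and 7.39 on ko/KO and 7.67, 7.8, 7.71 and 7.72 on wt/WT. The order was the reverse of that of Npy2r, again without overlap, at -0.25 (SE 0.070, limma adjusted p = 0.384). Ntsr1 was 7.93, 7.65, 7.70, 7.77 and 7.75 on ko/KO and 7.63, 7.63, 7.38 and 7.38 on wt/WT, a difference of 0.26 (SE 0.088, limma adjusted p = 0.389). These were the 3 receptors (9.09%) whose groups did not overlap, against 2.82% of all genes. Tacr3 differed by 0.36 (SE 0.14) and Sstr1 by 0.24 (SE 0.10), both with overlap. The mean array SD was 2.0 on ko/KO and 1.97 on wt/WT. With it as a covariate Npy2r, Ntsr1 and Oprd1 had an unadjusted p under 0.05, against 4.54% of all genes.

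Where the labels contradict each other these differences, taken as ending ko minus wt, were smaller and of the other sign. Taken by genotype field (KO minus WT) on the same arrays, they keep the sign they had where the labels agree. Npy2r was 7.44, 7.46, 8.04, 7.39 and 7.91 on the ko/WT arrays and 7.88, 7.91, 7.77 and 7.49 on the wt/KO arrays, a difference of -0.11 (SE 0.14) with overlap. Oprd1 differed by 0.035 (SE 0.073) and Ntsr1 by -0.039 (SE 0.058). The smallest p values were for Hcrtr2 at -0.17 (SE 0.061) and Sstr1 at -0.15 (SE 0.062), each lower with the ending ko, and for Htr2c at 0.11 (SE 0.067), which was 0.065 without wt/KO 1. In this set 2 of 33 receptors (6.06%) had an unadjusted p under 0.05, against 2.74% of all genes, and limma called 0 of either (lowest adjusted p = 0.9998). Both were lower with the ending ko, against 0.993% of all genes lower and 1.75% higher. Here 11 receptors had a higher mean with ko, where 53% of all genes did, and no receptor's groups stood apart, against 0.767% of all genes. A test of whether the difference by ending itself differed between the fields called 0 receptors (lowest limma adjusted p = 0.927, 2 receptors and 5.18% of all genes at an unadjusted p under 0.05). The smallest p was for Oprd1, at 0.22 (SE 0.094).

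**Figure D4:**
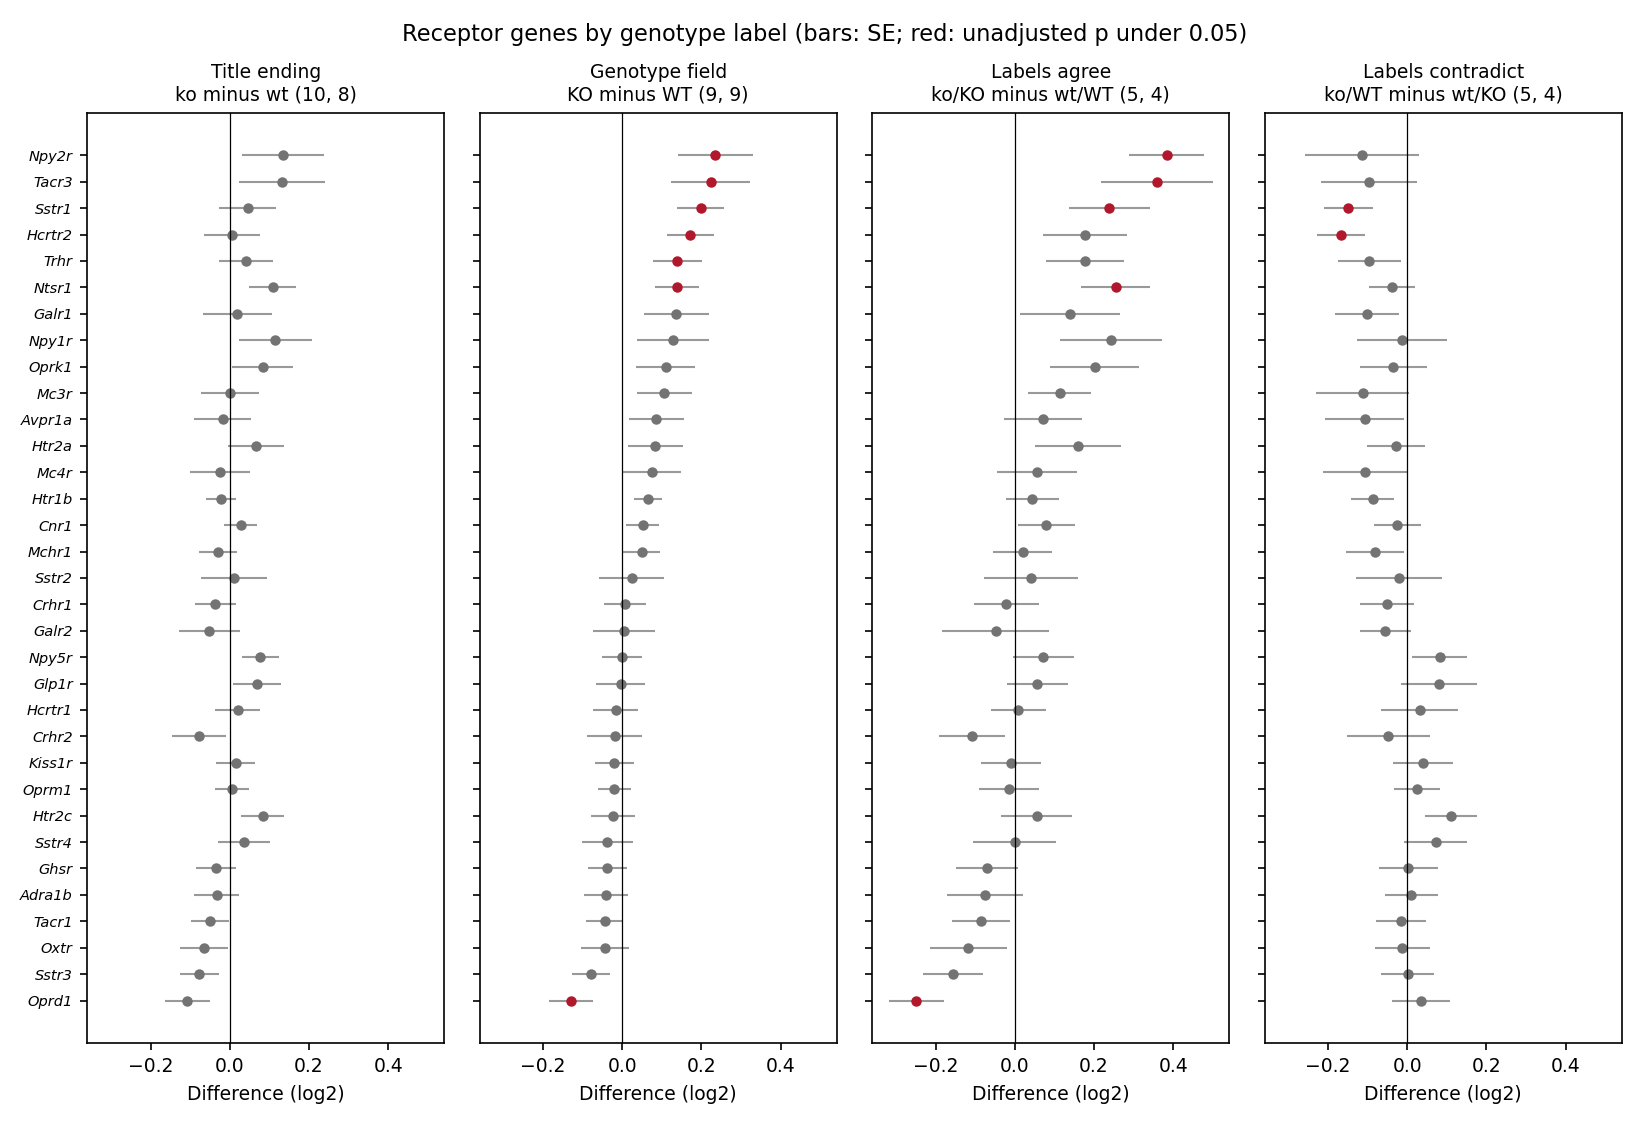
Log2 difference (horizontal axis) of 33 receptor genes in 4 label comparisons, with bars for the SE of the limma fit and red points for an unadjusted p under 0.05. The panels share arrays, and the arrays of the last panels, with agreeing and with contradicting labels, add up to those of the first. Npy2r and Oprd1 lie at opposite ends where the labels agree (0.38 and -0.25). Where the labels contradict each other they lie at -0.11 and 0.035 (as ending ko minus wt), in a panel that runs from -0.168 to 0.1105.

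Genes that couple receptors to their effectors or switch them off, a list of G protein subunits, receptor kinases, arrestins, accessory proteins, adenylyl cyclases and phospholipases, gave no call by limma. With the title ending ko 20 of the 28 measured were higher and 8 lower, with a median of 0.026, where 51.8% of all genes were higher. Of the 28, 2 had an unadjusted p under 0.05, against 4.63% of all genes (lowest adjusted p = 0.884). These were Gng3, a G protein gamma subunit, at 0.12 (SE 0.044), and Grk5, a kinase that marks active receptors for arrestin, at 0.14 (SE 0.057). Plcb4, a phospholipase driven by Gq, differed by 0.085 (SE 0.060), and Ramp3, an accessory protein of peptide receptors, by 0.15 (SE 0.11). By genotype field 21 were higher and 7 lower (median 0.036), where 47.2% of all genes were higher, and 2 had an unadjusted p under 0.05, against 6.95% of all genes. These were the Gi subunit genes Gnai2 at 0.13 (SE 0.040) and Gnai3 at 0.11 (SE 0.049), named after their values were seen. Where both labels agree 23 were higher and 5 lower (median 0.072), where 49.5% of all genes were higher. Of the 28, 1 had an unadjusted p under 0.05, against 11.1% of all genes. It was Grk5 at 0.24 (SE 0.078, limma adjusted p = 0.384), whose groups did not overlap, against 2.82% of all genes. Where the labels contradict each other 12 were higher and 16 lower with the ending ko (median -0.0095), where 53% of all genes were higher. There 1 had an unadjusted p under 0.05, against 2.74% of all genes, Gnai2 at -0.13 (SE 0.050), whose groups did not overlap, against 0.767% of all genes.

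The Wfs1 probeset fell in separate ranges, 10 arrays from 7.86 to 8.07 and 8 from 8.36 to 8.72, with the split at 8.2 log2 units. The sides are set by a measured level and are no genotype, so receptors on them are described without a test. No receptor differed by 0.2 or more between the sides (0 of 33, against 1.27% of all genes), and the ranges overlapped for all 33 (ranges were apart for 0.0201% of all genes). Of the receptors 14 had a higher and 19 a lower mean where Wfs1 was high, with a median of -0.022 against 0.0020 over all genes, and 7 (21.2%) differed by 0.1 or more, against 12.6% of all genes.

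The receptors that differed most were mainly lower where Wfs1 was high. Ghsr, the ghrelin receptor gene, was 8.09 ± 0.075 (SD, n = 8) where Wfs1 was high and 8.22 ± 0.076 (SD, n = 10) where it was low. Its difference of -0.13 was -1.67 pooled SDs, with ranges from 7.96 to 8.17 and from 8.03 to 8.31, so that the ranges overlapped. Crhr2 was 6.75 ± 0.16 and 6.90 ± 0.11, a difference of -0.15 or -1.12 pooled SDs. These were the 2 receptors beyond 1 pooled SD. Avpr1a differed by -0.13, Mc3r by -0.12 and Galr1 by -0.12. Mc4r differed by 0.13 in the other direction, with 6.99 ± 0.19 where Wfs1 was high and 6.86 ± 0.12 where it was low. Npy1r was also higher where Wfs1 was high, by 0.11. The difference of Mc4r was 0.083 without wt/KO 3, and that of Galr1 was -0.078 without wt/WT 4. The mean array SD was 1.996 where Wfs1 was high and 1.999 where it was low.

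**Figure D5:**
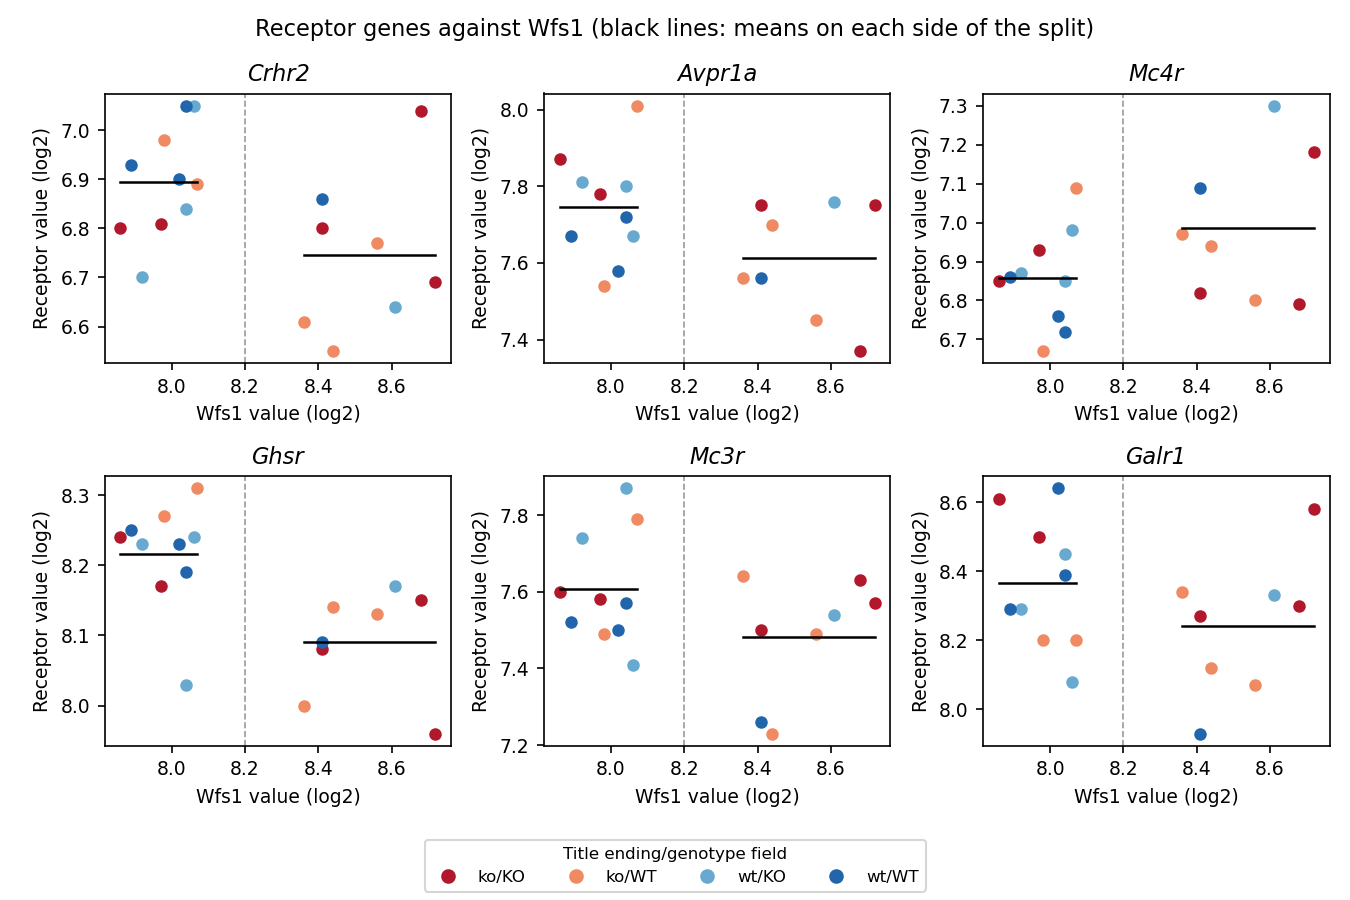
Log2 values of the 6 receptor genes with the largest difference (vertical axes) against Wfs1 (horizontal axes, log2) on 18 arrays, coloured by title ending and genotype field. The dashed line is the split at 8.2 and the black lines are the means of the 10 arrays below and the 8 above it. Crhr2, Avpr1a, Ghsr, Mc3r and Galr1 have the lower mean on the right and Mc4r the higher, and the ranges overlap in every panel.

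Within a side, no receptor followed the level of Wfs1 past the threshold. Of 66 relations, 33 on each side, 0 passed (lowest adjusted p = 0.707 by r, permutation test on 10 arrays and exact permutation test on 8), 4 had an unadjusted p under 0.05 and 0 passed by rho. The smallest p was for Crhr1 on the 10 arrays with low Wfs1 (r = 0.724, permutation p = 0.0171, rho = 0.704 with p = 0.0266). Next was Npy5r on the 8 arrays with high Wfs1 (r = 0.780, exact permutation p = 0.0214, rho = 0.819 with exact p = 0.0171).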

How the data were processed

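Total RNA of dissected and frozen hypothalami, 18 samples, was extracted with Trizol and turned into biotin-labelled sense target, per the labels' protocols. The authors deposited log2 values for each probeset, a scale inferred from their range. RMA and MAS5 stand in the submitters' processing notes, but which of them made these values is not given in the sources used here. Scanner files, detection calls and scan batches were not used here.

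Of 34760 probesets 21640 had 1 gene symbol in the platform annotation, 1321 several and 11799 none. The brightest single-gene probeset stood for a gene, which left 19937 genes. Entrez identifiers matched the RefSeq table of GRCm38.p6 for 21553 probesets. Label differences were fitted across all genes with limma 3.58.1 (R 4.3.3), with p-values adjusted over all genes by Benjamini-Hochberg at 0.05. Correlations had two-sided permutation tests of 100000 resamples (exact for 8 arrays), adjusted within each family of relations (Python 3.11.15, numpy 2.4.6). The scripts were tested on simulated data.

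The members and lists were chosen with earlier results of these data known. Given in full were the 8 members with the largest SD, the 3 with the smallest p in each label comparison, the relations with the largest r (8 between members, 8 with lists, 4 with ligands), the 6 members with the largest difference between the Wfs1 levels, the 3 genes most like each of the 4 most variable members and 4 coupling genes by p. Alternatives were the mean of probesets, quantile normalization, leaving out the dimmest 40% of genes, limma with trend and robust, leaving out each array, rho, and deviations from the label group means. The array SD as a covariate, or regressed out, was added after seeing the data, as were the ligand families and leaving out each array for the other called relations. Of 30 listed coupling genes 28 were measured.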

Additional observations from a re-analysis of the deposited data

Results flagged for a closer look

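Of 132 sets of values (33 receptors in 4 label groups) 6 held an array far from the others, 4.55%, and chance gives about 1 in 20. On ko/KO 2 Oprk1 was 7.84 against 8.32 to 8.44 on the other ko/KO arrays, and Avpr1a was 7.37 against 7.75 to 7.87. On ko/WT 2 Oprk1 was 7.94 against 8.25 to 8.37. Hcrtr1 was 7.71 on ko/WT 3 against 7.29 to 7.39, Mchr1 was 8.48 on wt/KO 3 against 8.21 to 8.22, and Htr2a was 8.52 on wt/WT 4 against 8.07 to 8.13.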

How the results depend on the processing

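No receptor or gene was called by any label under any alternative run, leaving out each array included (0 in each fit). No receptor differed by 0.2 between the Wfs1 levels or followed Wfs1 within a level, and none had a label interaction. The 12 receptor pairs became 2 after regression on the array SD and ranged from 5 to 15 when an array was left out. The 16 relations with marker lists became 5 after quantile normalization, 10 by Spearman's rho and 2 after regression on the array SD, and ranged from 4 to 24 when an array was left out. The ligand relations ranged from 0 to 1. The cause was not tested. Of 801 recomputed values of 38 named results 0 changed sign, 74 lost and 2 gained a call. No paired analysis was possible because the replicate numbers follow accession order. Every receptor had a mean above the lower quartile of all values. Leaving out the dimmest 40% of genes still removed Mc4r, Crhr2, Npy5r and Galr2, so that alternative did not cover them. Signal over background was not analysed here.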
